A study of Mus musculus with 30 samples.

Results

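Cholesterol is made from acetyl-CoA by a chain of enzymes, and cells also take it up, move it between membranes and store it as esters. The genes described here are the enzymes of that chain, the proteins that switch it on and off, and a few sterol carriers. They were chosen by name, as a list of 27 genes. A gene with several transcript rows was represented by the row with the highest mean. Of the 27 listed genes, 26 had a row in the deposited table, and Hmgcs1 was not analysed here. All 26 had a mean of at least 1 RPKM, the filter that left 13615 of 20855 named genes for testing. RPKM counts reads per kilobase of transcript and per M reads of the library. The 26 members are 17 enzymes, 5 regulators and 4 transport or storage genes.

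The values come from mammary tumours of 30 mice, with 1 poly-A RNA library per animal. Each tumour was induced by the polyoma middle T antigen (PyMT), a viral oncogene, in an animal of a backcross in which MOLF x PyMT offspring were mated to FVB mice. All 30 animals fall in 1 group, with no treatment, age or stage used as a contrast, so every comparison below is a relation across the 30 tumours (n = 30 except where stated). The number of each animal is that of its label.

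The pathway is known for a feedback loop. When sterols are low, Scap escorts the precursors of the transcription factors encoded by Srebf1 and Srebf2 to the Golgi, where proteases free the active factor; when sterols are high, Insig proteins hold Scap in the endoplasmic reticulum. The product of Srebf2 is best known for switching on sterol synthesis genes, and that of Srebf1 for switching on fatty acid synthesis genes, and both are themselves activated by cleavage rather than by RNA level alone. The lactating mammary gland makes milk fat and secretes cholesterol with it, which is the background for setting these genes beside the caseins, the main milk proteins.

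Low values lay on steps whose size gives the depth of a library, which was 117.0 to 196.9 M reads in 14 deep libraries and 42.7 to 61.95 M in 16 shallow ones. These depth classes were defined from the data and are not named in the labels. The 12 luminal epithelial markers summed to between 1832 and 3743 RPKM in the 30 tumours. Csn2, which encodes beta-casein, spanned a far wider range than any cholesterol gene: it was at 1.78 RPKM in animal 4038, at a median of 111 RPKM and at 17438 RPKM in animal 3540. The samples are whole tumour pieces, so fewer cells of a type and less RNA per cell cannot be told apart.

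Promoters of 6 enzymes are printed here. Msmo1, Mvd and Cyp51 rose with casein level, as described below. Of the remaining members, Lss, Idi1 and Nsdhl had the highest mean correlations with the other members (0.40, 0.38 and 0.37). Each is a window of 300 bases, 250 before and 50 after the annotated start, from RefSeq on assembly GRCm38.p6, printed in the direction of transcription. Capitals mark the letters CCAAT, or ATTGG where the motif lies on the opposite strand; CCAAT is the box bound by the factor NF-Y, a known partner of sterol-responsive transcription. The Msmo1 window is chr8:64733529-64733828 on the minus strand. The Mvd window is chr8:122443373-122443672 on the minus strand. The Cyp51 window is chr5:4104648-4104947 on the minus strand. The Lss window is chr10:76531355-76531654 on the plus strand. The Idi1 window is chr13:8885356-8885655 on the plus strand. The Nsdhl window is chrX:72918271-72918570 on the plus strand.
Msmo1: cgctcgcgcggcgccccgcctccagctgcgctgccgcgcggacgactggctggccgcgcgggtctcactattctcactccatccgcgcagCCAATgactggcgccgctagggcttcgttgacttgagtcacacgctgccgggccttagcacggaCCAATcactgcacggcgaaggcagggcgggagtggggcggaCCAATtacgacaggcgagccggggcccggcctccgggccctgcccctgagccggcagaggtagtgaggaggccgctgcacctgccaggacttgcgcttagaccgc
Mvd: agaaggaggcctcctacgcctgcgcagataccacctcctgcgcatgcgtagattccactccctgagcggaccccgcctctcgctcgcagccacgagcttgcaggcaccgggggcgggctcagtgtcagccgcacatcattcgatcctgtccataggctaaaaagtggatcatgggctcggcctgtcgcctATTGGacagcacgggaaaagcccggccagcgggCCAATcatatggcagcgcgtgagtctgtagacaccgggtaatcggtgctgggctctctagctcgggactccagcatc
Cyp51: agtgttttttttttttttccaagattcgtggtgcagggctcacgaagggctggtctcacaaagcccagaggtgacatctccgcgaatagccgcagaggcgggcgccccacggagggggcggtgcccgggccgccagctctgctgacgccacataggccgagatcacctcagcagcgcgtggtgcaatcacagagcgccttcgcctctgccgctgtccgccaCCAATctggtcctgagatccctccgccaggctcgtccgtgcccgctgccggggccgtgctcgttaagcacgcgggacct
Lss: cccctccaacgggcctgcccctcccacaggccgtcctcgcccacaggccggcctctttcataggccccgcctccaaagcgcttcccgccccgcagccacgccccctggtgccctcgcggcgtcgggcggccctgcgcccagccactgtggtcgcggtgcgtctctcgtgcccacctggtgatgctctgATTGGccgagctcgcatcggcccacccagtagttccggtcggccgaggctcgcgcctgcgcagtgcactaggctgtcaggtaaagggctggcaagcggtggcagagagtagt
Idi1: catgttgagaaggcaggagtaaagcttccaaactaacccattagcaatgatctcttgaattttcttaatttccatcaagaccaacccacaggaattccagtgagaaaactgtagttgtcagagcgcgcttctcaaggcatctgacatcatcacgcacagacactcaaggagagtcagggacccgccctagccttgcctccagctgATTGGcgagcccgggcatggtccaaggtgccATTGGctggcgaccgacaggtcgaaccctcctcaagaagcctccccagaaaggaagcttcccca
Nsdhl: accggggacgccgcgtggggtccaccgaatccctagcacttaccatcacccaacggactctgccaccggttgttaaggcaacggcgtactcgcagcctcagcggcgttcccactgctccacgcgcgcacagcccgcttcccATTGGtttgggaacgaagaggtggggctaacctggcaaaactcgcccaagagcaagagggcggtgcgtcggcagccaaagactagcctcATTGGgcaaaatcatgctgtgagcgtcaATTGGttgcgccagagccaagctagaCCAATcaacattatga

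A window was in the table for 22 of the 27 listed genes, Hmgcs1 included; Fdps, Fdft1, Sqle, Npc1 and Stard4 had none in it. Of these 22 windows, 19 held CCAAT on either strand (86.36%), against 38.64% of the windows of 10818 tested genes. All 6 printed windows hold it, from 1 match in Cyp51 and Lss to 4 in Nsdhl. The GC box GGGCGG, a site of general promoter factors, was also in 19 of 22 windows (86.36%), against 62.26% of tested genes. The core of the sterol response element, CACNCCAC, was in 3 of 22 windows (13.64%, Acat2, Hmgcs1 and Insig1), against 6.09%. The longer form TCACNCCAC, which contains that core, was in 1 window, that of Hmgcs1, against 1.01%. The E box CACGTG was in 4 windows (18.18%), against 9.94% of tested genes. A match of letters in a window describes the sequence and is not evidence of binding.

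The enzymes of the early pathway carry acetyl-CoA to squalene, and among them Fdps had by far the highest level. Acat2, the cytosolic thiolase that joins acetyl-CoA units, was at 21.1 RPKM in animal 3871, at a median of 29.5 and at 41.7 in animal 4357. Its close paralog Acat3 and its overlapping neighbour Tcp1 make that level uncertain, since how shared reads were counted is not given in the sources used here. Mvk, mevalonate kinase, ranged between 6.65 RPKM in animal 3427 and 16.3 in animal 3939 around a median of 10.8. Pmvk, which adds the next phosphate, ranged between 23.3 RPKM in animal 4150 and 56.3 in animal 4378 around a median of 33.6. Each kinase spanned a like range, 2.46-fold for Mvk and 2.41-fold for Pmvk between the lowest and the highest tumour.

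Mvd, the decarboxylase that makes isopentenyl diphosphate, had 10.4 RPKM in animal 4036, a median of 17.8 and 27.4 in animal 3939. Idi1, the isomerase of that product, had 9.62 RPKM in animal 4150, a median of 22.4 and 37.7 in animal 4438, the widest relative range of any enzyme (3.92-fold). Fdps, which builds farnesyl diphosphate for sterols and for prenylated proteins, had 59.4 RPKM in animal 4036, a median of 91.4 and 144 in animal 3939. Animal 3939 was thus at the top, and animal 4036 at the bottom, for both Mvd and Fdps. Fdft1, squalene synthase and the first enzyme committed to sterols, was steadier, between 12.2 RPKM in animal 4020 and 22.3 in animal 4164.

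The later enzymes close the ring and trim it to cholesterol. Sqle, squalene epoxidase, had 22.1 RPKM in animal 4038, a median of 30.9 and 55.8 in animal 4030, which stood above every other tumour; animal 4378 was next with 41.5 RPKM. Lss, which closes the ring to lanosterol, had 11.96 RPKM in animal 4150, a median of 18.3 and 28.7 in animal 4378. Cyp51, the lanosterol demethylase, had 8.17 RPKM in animal 4547, a median of 10.99 and 20.9 in animal 4378. Msmo1, the methylsterol oxidase, had 7.32 RPKM in animal 4144, a median of 10.97 and 19.5 in animal 4378. Animal 4378 was the highest tumour for Lss, Cyp51 and Msmo1, and also for Nsdhl at 23.3 RPKM and Sc5d at 21.1 RPKM.

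Nsdhl, a sterol dehydrogenase, averaged 16.98 ± 2.35 RPKM (SD, n = 30), and Sc5d, a sterol desaturase, averaged 15.1 ± 2.37 RPKM (SD, n = 30). Ebp, the sterol isomerase, averaged 29.2 ± 3.48 RPKM (SD, n = 30) and had the smallest spread of all members, an SD of 0.16 on the log2(RPKM + 1) scale. Dhcr7, the reductase that makes cholesterol itself, averaged 36.6 ± 6.14 RPKM, and Tm7sf2, a sterol reductase, 11.7 ± 2.17 RPKM (SD, n = 30 each). Hsd17b7, which reduces the ketone of sterol intermediates, was the least abundant enzyme, with 3.30 RPKM in animal 4150 and 7.92 in animal 4438.

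Srebf1 was the most abundant member and had the largest SD on the log2(RPKM + 1) scale, 0.54. Relative to its mean Insig1 varied more, with a coefficient of variation of 38.7% against 35.4% for Srebf1. Srebf1 had 144 RPKM in animal 4378, a median of 360 and 681 in animal 4144. Srebf2 had 21.8 RPKM in animal 4150, a median of 45.0 and 63.8 in animal 4262. Srebf1 exceeded Srebf2 in 30 of 30 tumours, by a ratio of 3.40 in animal 4378, a median of 8.03 and 17.05 in animal 4038. Scap, the escort protein, was close to Srebf2 in level, with 28.01 RPKM in animal 4150, a median of 47.0 and 62.5 in animal 4144.

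Insig1 and Insig2 retain Scap, and Insig1 is itself a known target of the pathway. Insig1 had 14.5 RPKM in animal 4030, a median of 20.998 and 60.9 in animal 4378, where it stood apart from the next tumour, animal 4139 at 35.5 RPKM. Insig2 had 11.5 RPKM in animal 4150, a median of 18.2 and 25.7 in animal 4438. Insig1 was above Insig2 in 22 of 30 tumours, with ratios between 0.701 in animal 4315 and 3.47 in animal 4378. The order of this pair thus changed between tumours, while that of Srebf1 and Srebf2 did not.

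Stard4, a cytosolic sterol carrier, had the widest relative range of all members, with 1.78 RPKM in animal 4150, a median of 6.17 and 12.03 in animal 3939 (6.75-fold). Npc1 and Npc2 hand cholesterol out of the lysosome. Npc1 averaged 16.9 ± 2.43 RPKM and Npc2 40.3 ± 5.76 RPKM (SD, n = 30 each), and Npc2 was above Npc1 in 30 of 30 tumours. Soat1, which esterifies cholesterol for storage, had 5.34 RPKM in animal 4438, a median of 7.95 and 12.4 in animal 4036. As a set the members were typical in spread: their median SD was 0.27 on the log2(RPKM + 1) scale, against 0.27 over all tested genes, and 13 of 26 lay above the median gene. Only Srebf1 exceeded an SD of 0.5, which 11.8% of tested genes did. Their median mean level, 18.8 RPKM, was above that of all tested genes, 11.7 RPKM.

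**Figure D1:**
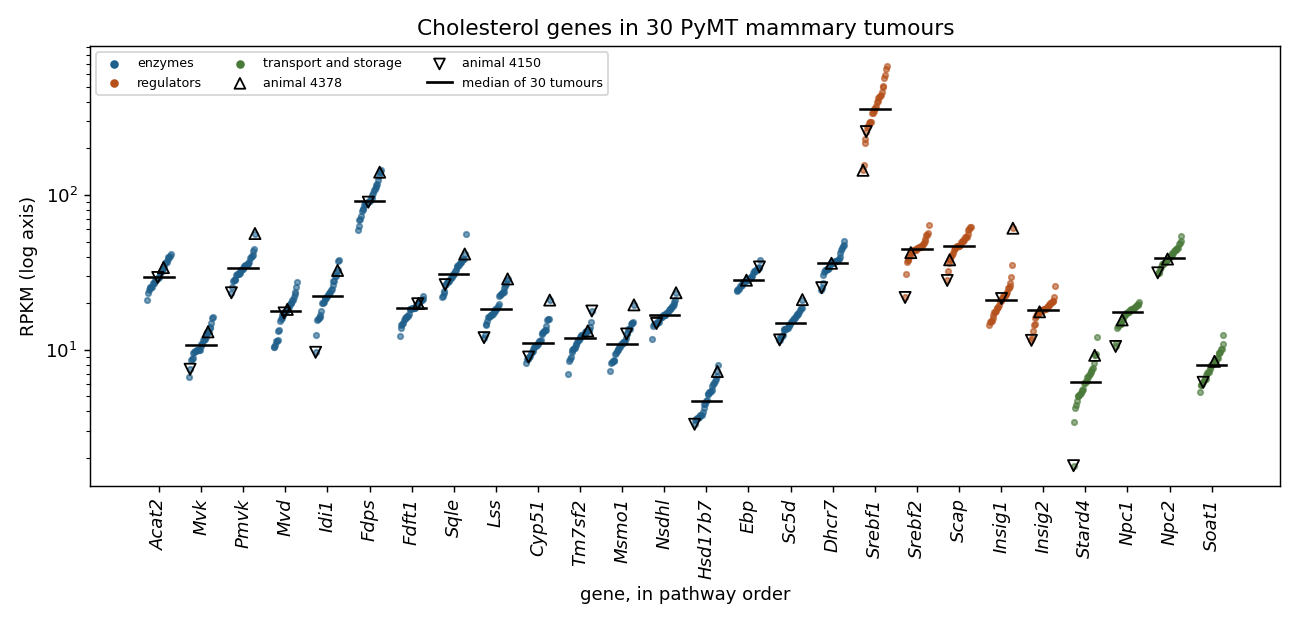
RPKM of each of the 26 cholesterol genes (log axis) in each of the 30 tumours, with genes in pathway order along the horizontal axis. Points are tumours, horizontal bars are medians, and triangles mark animals 4378 and 4150. Srebf1 stands above all other members in level, and animal 4150 lies at the bottom for 10 members.

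A few tumours set the ends of these ranges. Animal 4150 was the lowest tumour for 10 of 26 members, among them Pmvk, Idi1, Lss, Srebf2, Scap, Insig2, Stard4 and Npc1, and the highest for Tm7sf2. It was also the shallowest library, with 42.7 M reads, and the part of depth in its low values was not tested. Some lists outside the set were low in it too. Their mean standardised levels, in SD over the 30 tumours, were -3.29 for SREBP processing, -3.34 for sterol efflux and uptake, -2.59 for fatty acid synthesis and -2.04 for stroma matrix genes. Macrophage, endothelial and basal genes were at -1.64, -1.27 and -1.04, and skeletal muscle and adipocyte genes at -0.97 and -0.91. Proliferation and isoprenoid branch genes were at -0.42 and -0.02. Those of luminal epithelial, lymphocyte and casein genes were 0.02, 0.42 and 1.31. How often this animal was lowest over all tested genes was not counted. Animal 4378 was the highest tumour for 7 members and the lowest for Srebf1, and it had the highest casein score of the 30. Animal 3939 was the highest for 4 members, Mvk, Mvd, Fdps and Stard4. For several fits below, values without animal 4378, animal 4150 or both are also given. The correlations use all 30 tumours, and the difference between the slopes on Srebf2 and Srebf1 was not fitted without both animals.

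Across tumours the enzymes went up and down together more than genes in general. The mean Pearson correlation over the 136 enzyme pairs was 0.39 on the log2(RPKM + 1) scale, the median was 0.41, and 125 pairs were positive. The mean over all pairs of tested genes was 0.02. It was 0.22 over all 26 members, 0.24 among the regulators and 0.24 among the transport genes. The first principal component held 45.9% of the standardised variance of the enzymes. The tumours differ in library depth and in the mixture of cells, and backcross animals can differ in inherited alleles, so these correlations are a description. Some of the genes share a chromosome, such as Fdps and Pmvk on chromosome 3, Msmo1 and Mvd on chromosome 8, and Sqle and Srebf2 on chromosome 15. The caseins lie on chromosome 5, as do Mvk, Cyp51 and Insig1. The part of genotype in these correlations and in the fits below was not tested.

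Cyp51 and Fdps were the enzymes closest to the rest, with mean correlations to the other enzymes of 0.55 and 0.54, followed by Sqle (0.51) and Nsdhl (0.49). Dhcr7, the last step, stood apart with a mean of 0.11, and so did Tm7sf2 with 0.18. Among the other members, Stard4 had a mean of 0.42 with the enzymes and Insig1 0.32. Srebf2 had 0.22 and Scap 0.06. Srebf1 ran the other way, with a mean of -0.32, and Soat1 with -0.22.

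**Figure D2:**
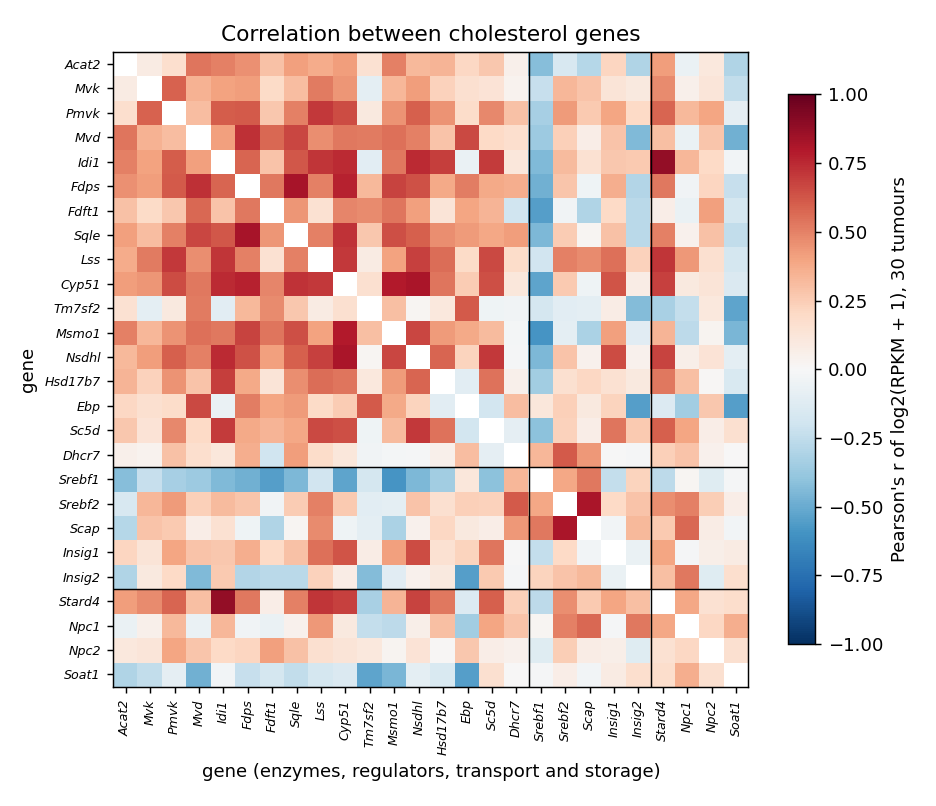
Pearson correlation of log2(RPKM + 1) between each pair of the 26 cholesterol genes over 30 tumours, with both axes listing genes in the order enzymes, regulators, transport and storage. Red is positive and blue negative; most enzyme pairs are red, and the Srebf1 row is blue against most enzymes and red against Scap.

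The same pattern was then read with Sqle as the regressor, a downstream enzyme used because Hmgcs1 was not analysed here. The same tumours and the same correlations of Sqle enter this fit, so positive enzyme slopes are no separate test of the pattern. What the fit adds is the place of the enzymes among all tested genes. Each tested gene was fitted with limma on the standardised level of Sqle, and p-values were adjusted over all genes by Benjamini and Hochberg with a threshold of 0.05. Over all genes 1.37% passed, 0.676% rising and 0.698% falling. Of the calls 49.2% were rising, against 78.7% after quantile normalization and 62.9% after each library was rescaled without its milk protein rows. Of the 25 other members 5 rose and none fell. All 16 other enzymes had a positive slope, here and with each tumour left out in turn; within the deep libraries 15 did.

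Fdps rose by 0.28 ± 0.04 on the log2 scale per SD of Sqle (SE, n = 30), with an adjusted p of 0.000167 in limma, the smallest p of all 13614 genes in that fit. Cyp51 rose by 0.21 ± 0.04 (adjusted p = 0.0105, limma), and ranked 7 of all genes. Mvd rose by 0.25 ± 0.05 (adjusted p = 0.0189), Idi1 by 0.26 ± 0.06 (adjusted p = 0.0278) and Msmo1 by 0.19 ± 0.04 (adjusted p = 0.0256), all in limma. These 5 genes span the chain between isopentenyl diphosphate and the demethylated sterols. Fdps, Cyp51 and Mvd passed with each of the 30 tumours left out in turn, whereas Idi1 and Msmo1 did not without animal 4038 or animal 4144, nor Idi1 without animal 4036. Without the extreme tumour 4030 the number of members past the threshold was 9. Within the 14 deep libraries no gene of any kind passed, and within the 16 shallow ones 9 genes did, 2 of them members. These were Fdps with a slope of 0.32 and Cyp51 with 0.35. In the deep libraries those slopes were 0.26 and 0.13.

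The genes outside the set whose level went most closely with Sqle, by the smallest p in that fit over 30 tumours, were Slc7a5, an amino acid transporter, with a slope of 0.43 ± 0.07, and Ppa1, a pyrophosphatase, with 0.22 ± 0.04. Lrp8, a lipoprotein receptor family member, had 0.28 ± 0.05, Rpn1, a subunit of the oligosaccharyl transferase, 0.13 ± 0.03 and Srm, spermidine synthase, 0.25 ± 0.05. All 5 passed in limma, with adjusted p between 0.00547 and 0.0105. Of the 5 caseins, Csn1s2a and Csn2 also rose with Sqle, with adjusted p of 0.0328 and 0.0493 in limma, so this fit and the casein fit below are not independent. Markers of other kinds moved with Sqle too, short of the threshold. All 30 proliferation genes had positive slopes, with a median of 0.14 and 18 at an unadjusted p under 0.05, and their summed level ranged between 559 and 1384 RPKM. All 11 adipocyte genes had negative slopes, with a median of -0.61 and 9 at an unadjusted p under 0.05, and that list summed to between 57.7 and 3511 RPKM. With the proliferation score as a covariate 7 genes passed, 2 of them members, Fdps and Cyp51. The part of adipocyte content was not tested.

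The RNA levels of Srebf2 and Srebf1 were set against the members next, first alone and then together. With Srebf2 alone, 10.2% of all genes passed in limma, 5.89% rising and 4.34% falling. Of these calls 57.6% were rising, against 81.7% after rescaling without milk protein rows. Of 25 members 4 rose and none fell. Scap rose by 0.21 ± 0.03 on the log2 scale per SD of Srebf2 (SE, n = 30, adjusted p = 7.93e-05, limma), the 6th smallest p of all genes. Dhcr7 rose by 0.15 ± 0.04 (adjusted p = 0.00929), Lss by 0.16 ± 0.05 (adjusted p = 0.0389) and Npc1 by 0.11 ± 0.04 (adjusted p = 0.0473), all in limma.

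Scap passed in all 30 fits that left out 1 tumour, and its slope was 0.22 without animals 4378 and 4150 (adjusted p = 0.00382, limma). Dhcr7 did not pass without animal 4150 (adjusted p = 0.0942, limma). Lss lost its call in 6 of the 30 fits and Npc1 in 18, and without animal 4150 the slope of Npc1 was 0.05 (adjusted p = 0.559, limma). The number of members called was 2 without animal 4150, 4164, 4488, 4492 or 4511. The slopes of the enzymes other than Lss and Dhcr7 on Srebf2 did not pass, for example 0.09 ± 0.06 for Fdps and 0.08 ± 0.05 for Cyp51. Outside the set, the 5 genes with the smallest p rising with Srebf2 over the 30 tumours were Clstn1, Pigt, Sox4, Ints3 and Sh3bp4, with slopes between 0.17 for Ints3 and 0.37 for Sox4.

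With Srebf1 alone, 1.25% of all genes passed in limma, 1.07% rising and 0.184% falling; 85.3% of the calls were rising, against 67.3% after quantile normalization. Msmo1 was the 1 member of 25 to pass, and it fell by 0.18 ± 0.05 per SD of Srebf1 (adjusted p = 0.044, limma). That call was lost in 18 of the 30 fits that left out a tumour and without animals 4378 and 4150. The slopes of 15 of 17 enzymes were negative (16 after quantile normalization), with a median of -0.10, against 0.01 over all genes. The fatty acid synthesis list, the genes for which Srebf1 is best known, had 0 of 18 members past the threshold in limma, with 3 at an unadjusted p under 0.05 and a median slope of -0.02. All 5 caseins had negative slopes on Srebf1, 4 of them with an unadjusted p under 0.05, and none passed.

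Srebf1 and Srebf2 were then fitted together, and the slope on Srebf1 was subtracted from the slope on Srebf2. This difference passed in limma for 2.27% of all genes, with 0.749% positive and 1.52% negative; 33.0% of the calls were positive, against 49.6% after quantile normalization. Of 24 members 9 passed, all with a positive difference, and all 24 differences were above 0, with a median of 0.23 against -0.02 over all genes. With each tumour left out in turn, between 22 and 24 were above 0. The members that passed were Pmvk, Idi1, Fdps, Sqle, Lss, Cyp51, Nsdhl, Sc5d and the carrier Stard4.

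Idi1 had a joint slope of 0.25 on Srebf2 and -0.28 on Srebf1, a difference of 0.53 ± 0.10 (SE, n = 30, adjusted p = 0.0113, limma). Stard4 had 0.28 on Srebf2 and -0.22 on Srebf1, a difference of 0.50 ± 0.11 (adjusted p = 0.0192, limma). Fdps had 0.19 and -0.24 in the same order, a difference of 0.42 ± 0.08 (adjusted p = 0.0113, limma). For each of these 3 genes the slope was positive on Srebf2 and negative on Srebf1, the other factor held fixed. By contrast Scap had positive slopes on both, and the difference of 0.13 ± 0.05 did not pass (adjusted p = 0.162, limma).

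This count rested on single tumours. Without animal 4150, the lowest for Srebf2, Idi1 and Stard4, Fdps was the 1 member that passed, with a difference of 0.54 (adjusted p = 0.0246, limma); the differences were then 0.38 for Idi1, 0.34 for Stard4 and 0.40 for Cyp51. Without animal 4378, the lowest for Srebf1, 4 members passed, namely Idi1, Fdps, Cyp51 and Stard4. Fdps passed in all 30 such fits. The call of Sc5d, with an adjusted p of 0.0471 in limma, was lost in 21 of them.

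**Figure D3:**
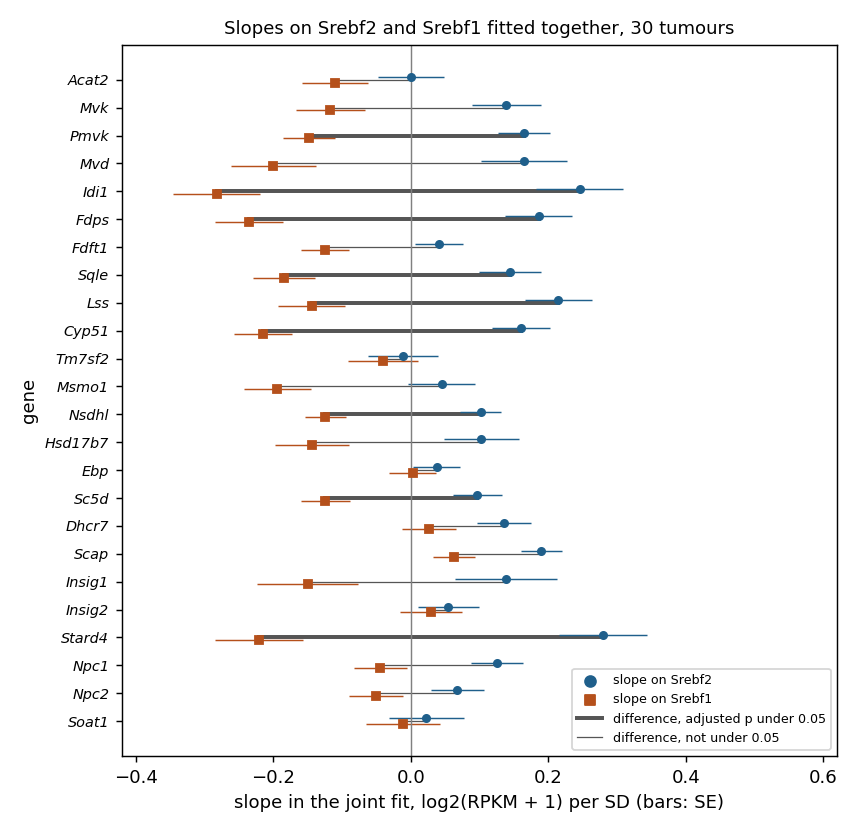
Slopes of 24 cholesterol genes in the joint fit on the standardised levels of Srebf2 (circles) and Srebf1 (squares), in log2(RPKM + 1) per SD with SE bars, over 30 tumours. Thick connecting lines mark the 9 genes whose difference had an adjusted p under 0.05; for all 24 genes the circle lies right of the square.

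Insig1 as a regressor gave 0 of 13614 genes and 0 of 25 members past the threshold in limma (0%), with 753 genes and 8 members at an unadjusted p under 0.05. Of the 17 enzymes 16 had a positive slope on Insig1. Without animals 4378 and 4150 together 15 did, and again 0 genes passed in limma.

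The casein score, the mean of the standardised levels of 5 casein genes, was used to ask how the pathway went with milk protein expression. Over all genes 2.01% passed in limma, 0.647% rising and 1.36% falling. Of these calls 32.2% were rising, against 65.8% after quantile normalization and 51.4% after rescaling without milk protein rows. Of 26 members 3 rose and none fell, namely Msmo1, Mvd and Cyp51. The count was 1 without animal 4038 and 5 without animal 4150 or 4164. The slopes of all 17 enzymes were positive, with a median of 0.09, whereas 4583 of 13610 genes had a positive slope and the median over all genes was -0.03. Under both of those scalings all 17 were positive, and with each tumour left out in turn between 15 and 17 were. Of the 17 enzymes 9 had an unadjusted p under 0.05, against 2282 of all genes.

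Msmo1 had 19.5 RPKM in animal 4378, 14.99 in animal 3540 and 14.6 in animal 4139, the tumours with the highest casein scores, against 8.26 in animal 4038, 8.52 in animal 4036 and 8.58 in animal 4547, those with the lowest. It rose by 0.24 ± 0.04 on the log2(RPKM + 1) scale per SD of the casein score, or 1.18-fold (SE, n = 30, adjusted p = 0.000392, limma), and ranked 8 of all genes by p. The ordering was not perfect, since animal 4438 had 15.1 RPKM with a casein score below 0. The call held with each tumour left out in turn, with slopes between 0.22 and 0.25, and without animals 4378 and 4150 together (adjusted p = 0.007, limma). The slope of Msmo1 was 0.27 ± 0.06 within the 14 deep libraries and 0.22 ± 0.05 within the 16 shallow ones, where the adjusted p was 0.0871 and 0.105 in limma.

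Mvd had 18.2, 20.2 and 25.3 RPKM in the 3 tumours with the highest casein scores, against 10.7, 10.4 and 15.4 RPKM in the 3 with the lowest. It rose by 0.23 ± 0.05 per SD (adjusted p = 0.0212, limma). The tumour with the most casein, animal 4378, was near the median for Mvd, and without it the slope was 0.29. Of the fits that left out 1 tumour, the call was lost in that without animal 4038 (adjusted p = 0.0595, limma). Within the deep libraries the slope of Mvd was 0.44 ± 0.06 (adjusted p = 0.0192) and within the shallow ones 0.12 ± 0.07 (adjusted p = 0.514, limma); whether the classes differ was not tested.

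Cyp51 had 20.9, 15.8 and 13.5 RPKM in the 3 tumours with the highest casein scores, against 9.03, 9.09 and 8.17 RPKM in the 3 with the lowest. It rose by 0.17 ± 0.04 per SD (adjusted p = 0.0289, limma). The call was lost in the fits without animal 3540, 4038, 4378 or 4547; without animal 4378 the slope was 0.13 (adjusted p = 0.142, limma). It held in 9 of 13 other settings that used libraries of both depth classes. It was lost without animals 4378 and 4150 together (slope 0.16, adjusted p = 0.0562, limma), and when the animals with the highest casein scores, 4378 and 3540, were left out (slope 0.11, adjusted p = 0.283, limma). It was also lost with a score made from ranks and when each library was rescaled without its milk protein rows (adjusted p = 0.0631, limma, slope 0.18). The slope of Cyp51 was 0.16 ± 0.06 within the deep libraries and 0.19 ± 0.07 within the shallow ones, and it passed in neither.

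**Figure D4:**
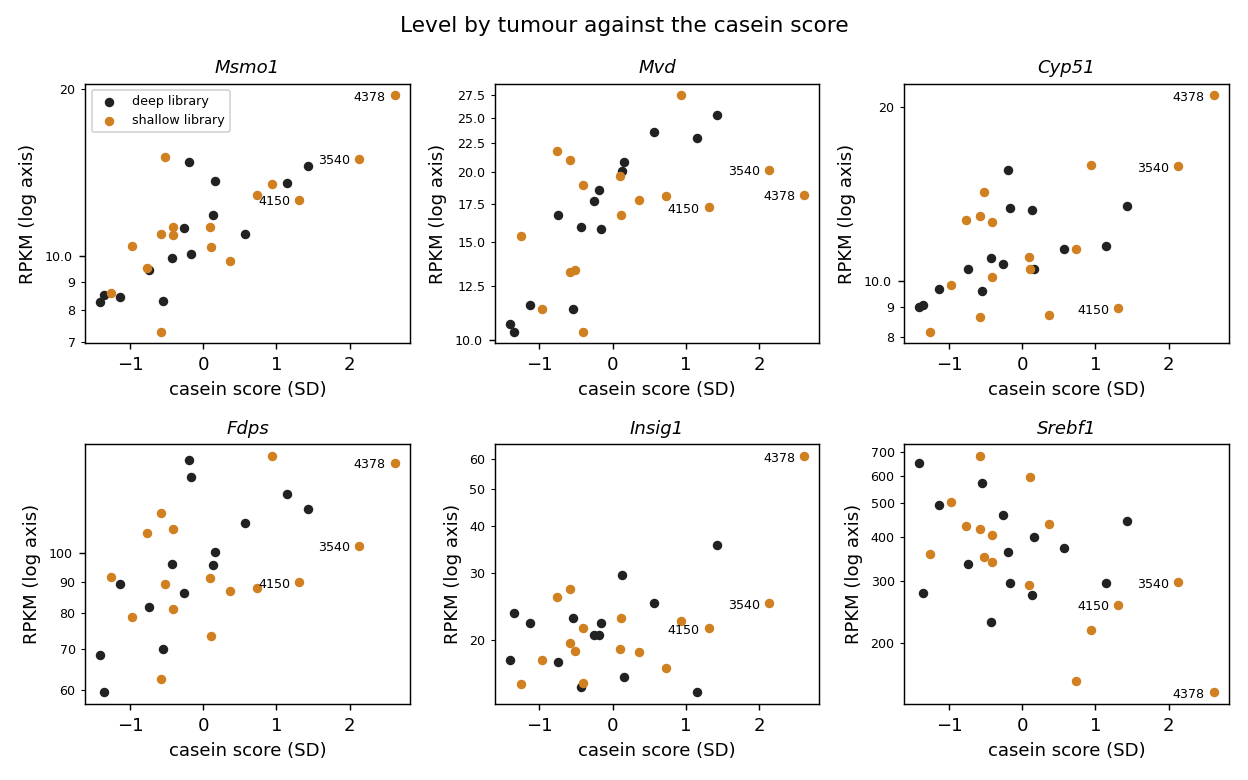
RPKM (log axis) of Msmo1, Mvd, Cyp51, Fdps, Insig1 and Srebf1 against the casein score (in SD) in 30 tumours. Black points are the 14 deep libraries and orange points the 16 shallow ones. Msmo1 is higher at the high end of the axis than at the low end, with scatter between. Its lowest value, in animal 4144, lies at a score of -0.58. The highest Insig1 and the lowest Srebf1 value belong to animal 4378.

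The other members did not pass against the casein score. Fdps had a slope of 0.18 ± 0.05 (adjusted p = 0.057), Sqle 0.15 ± 0.05 (adjusted p = 0.0619) and Insig1 0.20 ± 0.06 (adjusted p = 0.0848), all in limma. Without animal 4378 the slope of Insig1 was 0.09 ± 0.06 (adjusted p = 0.469, limma). Srebf1 had the steepest negative slope, -0.30 ± 0.08 (adjusted p = 0.0524, limma), and 4 of the 5 regulators had negative slopes, Insig1 being the exception. Srebf2 had -0.05 ± 0.05 and Scap -0.10 ± 0.05. Among the carriers Soat1 had -0.12 ± 0.05 (adjusted p = 0.16, limma) and Npc2 a slope of 0. At the other end of the pathway Dhcr7 (0.01 ± 0.05) and Sc5d (0.03 ± 0.04) had the smallest slopes of the enzymes.

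**Figure D5:**
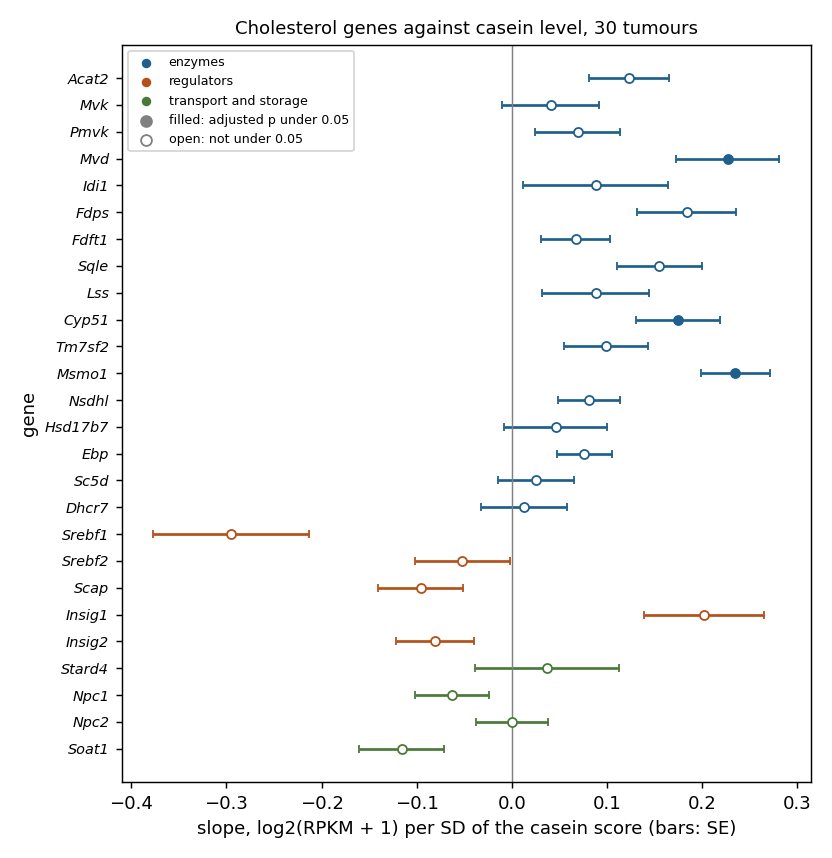
Slope of each of the 26 cholesterol genes on the casein score, in log2(RPKM + 1) per SD with SE bars, over 30 tumours. Filled circles (Mvd, Cyp51 and Msmo1) had an adjusted p under 0.05; every enzyme lies right of 0, and Srebf1 lies farthest left.

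For scale, the 3 genes outside the set that rose with the smallest p were Btn1a1 (slope 1.06), Wap (1.17) and Btn2a2 (0.52), a butyrophilin of the milk fat globule, a whey protein and another butyrophilin. Those that fell with the smallest p were Dcaf8 (-0.14), Calcoco1 (-0.23) and Cirbp (-0.27). Of neighbouring pathways, the isoprenoid branch had 1 of 12 genes rising, Nus1, a subunit of the enzyme that makes dolichol, with a slope of 0.15 ± 0.03 (adjusted p = 0.0185, limma). None passed of 18 fatty acid synthesis genes, 10 genes of SREBP processing or 12 of sterol efflux and uptake, where 3, 1 and 4 had an unadjusted p under 0.05. The median slopes of these lists were 0.02, -0.01 and -0.05.

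Markers of other cell types were read in the same fit, and no gene of the adipocyte (11 tested), stroma matrix (20), macrophage (14), luminal epithelial (12), basal (9), skeletal muscle (12), endothelial (10) or lymphocyte (8) lists passed against the casein score in limma. All 12 skeletal muscle genes had positive slopes, with a median of 0.65; the summed muscle level ranged between 29.4 and 16659 RPKM over the tumours, and its part in the result was not tested. With the adipocyte score as a covariate Fdps and Sqle joined Msmo1, Mvd and Cyp51, and with the proliferation score 7 members passed, Srebf1 among them falling. With the luminal epithelial score as a covariate Msmo1, Mvd and Cyp51 passed again, and Srebf1 fell.

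The proliferation score, made from 30 cell division genes, went with 16.1% of all genes in limma, 9.14% rising and 6.98% falling. Of 26 members 3 rose and none fell, a share close to that of all genes. Idi1 rose by 0.23 ± 0.07 per SD (SE, n = 30, adjusted p = 0.0156), Hsd17b7 by 0.15 ± 0.05 (adjusted p = 0.0241) and Fdps by 0.16 ± 0.05 (adjusted p = 0.0363), all in limma. The 3 members that rose with casein had slopes here of 0.17 (Mvd, adjusted p = 0.0565), 0.05 (Cyp51, adjusted p = 0.537) and 0.04 (Msmo1, adjusted p = 0.668), in limma. Fdps had an adjusted p of 0.057 with casein (limma), so which members the scores share depends on the threshold. The overlap of the calls over all genes was not counted. All 17 enzymes again had positive slopes on the proliferation score, with a median of 0.06. In the same fit 15 of 20 stroma matrix genes, 7 of 10 endothelial genes and 2 of 11 adipocyte genes fell, with negative slopes in every gene of these 3 lists. The stroma list summed to between 461 and 7751 RPKM, the endothelial list to between 31.3 and 138 RPKM and the adipocyte list to between 57.7 and 3511 RPKM. Their part in the slopes of the enzymes was not tested. The call of Idi1 held in all 30 fits without 1 tumour, that of Hsd17b7 in 27 and that of Fdps in 23. The number of members called was 1 without animal 4036, 7 without animal 4378 and 5 without animal 4547.

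No member passed against the adipocyte score, with which 8.42% of all genes went in limma (6.81% rising and 1.61% falling), and 2 of 26 members had an unadjusted p under 0.05. Nor did any pass against the stroma matrix score, with which 21.9% of genes went (10.4% rising and 11.5% falling), again with 2 of 26 at an unadjusted p under 0.05. The enzymes leaned to the negative side in both fits, with positive slopes in 3 of 17 for adipocyte and 1 of 17 for stroma and medians of -0.03 and -0.05. Of the fatty acid synthesis genes, 10 of 18 rose with the adipocyte score and 8 of 18 with the stroma score.

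Insert size and depth class were read in the same way. The insert size given in the labels went with 0.0367% of genes in limma (0.0147% rising and 0.022% falling, 5 genes) and with no member, and no member had an unadjusted p under 0.05. Insert size also differed between the depth classes, with a mean of 233.3 ± 14.7 in the deep and 261.4 ± 12.3 in the shallow libraries (SD, n = 14 and 16). With depth class as a covariate 468 genes passed, 14.3% of them rising, and again no member; with each tumour left out in turn up to 113 genes and no member did. The difference of deep minus shallow libraries passed for 1.24% of genes (0.022% higher and 1.22% lower in deep libraries) and for no member. Tm7sf2 was the 1 member with an unadjusted p under 0.05, at -0.21 ± 0.09 on the log2 scale, deep minus shallow (SE, 14 deep and 16 shallow libraries, adjusted p = 0.352, limma).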

How the data were processed

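Tumour pieces of 30 mice were profiled as poly-A RNA, 1 library per animal. The authors deposited 1 table of RPKM values for 27902 transcript rows and 30 columns, all used. The unit was inferred from the values. Per the submitters' processing notes CASAVA 1.7.0 was used; aligner settings, build, annotation and strand were not stated in any source read here. Rows were named with RefSeq (26490) and GENCODE (154) tables; 1258 unnamed rows (1.94% of summed RPKM) and 686 small RNA rows were left out.

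Depth was recovered from steps between low values. Between 46.4 and 69.8% of these lay within 0.12 of whole reads, too few for a count test. Genes averaging 1 RPKM or more were fitted on the log2(RPKM + 1) scale, where changes of low genes come out too small, by limma 3.58.1 in R 4.3.3 (two-sided, moderated with a trend), adjusted over all tested genes by Benjamini and Hochberg at 0.05. Scores are means of standardised list members in SD units, and list genes were left out of the counts of their own score. A planned fit on Hmgcs1 was not run, since no row was matched, and Sqle replaced it. SDs measure the spread between animals, technical variation included, and SEs measure the uncertainty of a fitted slope or difference. The fit was tested on simulated data. Motifs were searched on both strands of RefSeq windows with Python 3.11.15; where a gene had several windows the first listed was used. Alternatives were the pseudocount, the filter, the scaling, the score, covariates and leaving out tumours. Omitting animals 4378 and 4150 together, the casein covariate, the depth split for Srebf1 and the fits around Sqle were chosen after seeing the data. So was leaving out each tumour in turn, except for the fits on the casein score and on Srebf2.

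The genes and the lists were chosen with earlier results of these data known. Genes named outside the set were the 5 rising with the smallest p with Sqle and with Srebf2, the 3 in each direction with the casein score, and called genes of the neighbouring lists. A few genes within that rule are not reported here.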

Additional observations from a re-analysis of the deposited data

How the results depend on the processing

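For the casein score (3 members called), 1 member passed within the deep libraries, 0 within the shallow ones, 5 with Csn2 alone, 5 with the adipocyte score and 7 with the proliferation score as a covariate. Over all genes 273 passed in the main casein fit and, in the same order, 2, 26, 380, 316 and 442. For Srebf2 (4 called), 7 passed after rescaling without milk protein rows, 1 without the 2 tumours farthest from the median (4150 and 4357), 0 within the deep libraries and 1 without animals 4378 and 4150. Over all genes 1393 passed in the main fit of Srebf2 and, in the same order, 2440, 103, 0 and 281. For Srebf1 (1 called), 0 passed with no filter on low genes, 3 after quantile normalization, 0 with depth class or the casein score as a covariate, 0 within the deep libraries, 0 within the shallow ones and 0 without animals 4378 and 4150. Over all genes 170 passed in the main fit of Srebf1 and, in the same order, 166, 257, 116, 17, 0, 17 and 82. For Sqle (5 called), 8 passed after rescaling, 0 within the deep libraries, 2 within the shallow ones and 2 with the proliferation score as a covariate. Over all genes 187 passed in the main fit of Sqle and, in the same order, 151, 0, 9 and 7. For the proliferation score (3 called), 5 passed after quantile normalization, where 2032 of all genes did, against 2190 in the main fit. Fits within a depth class had fewer samples; the cause of the other changes was not tested.

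With each tumour left out in turn the counts of members ranged between 1 and 5 for the casein score (1 without 4038, 5 without 4150 or 4164), 1 and 7 for proliferation (1 without 4036, 7 without 4378, 5 without 4547), 2 and 5 for Srebf2 (2 without 4150, 4164, 4488, 4492 or 4511), 0 and 3 for Srebf1, 3 and 9 for Sqle (3 without 4038 or 4144, 9 without 4030), and 1 and 12 for the Srebf2 minus Srebf1 difference. The count was 0 or 1 for stroma (1 without 4461), and 0 in each such fit for adipocyte, Insig1, insert size and depth class. Over all genes the casein count then ranged between 123 and 428, the Srebf2 count between 294 and 1810, and the difference count between 1 and 900. For Sqle it ranged between 43 and 314, for Srebf1 between 31 and 409, and for proliferation between 1238 and 2805.

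Of 10252 member values under alternatives, 84 crossed to the passing side and 137 to the other, and no called value changed sign; 358 values that passed in neither fit did. Pmvk, Mvd, Scap and Insig2 had more than 1 row, and the next row correlated with the highest at 0.95 or above. No paired analysis was possible because the labels give 1 group. No fit on Hmgcs1 was run.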

Other observations

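Genes of SREBP processing beside the members were also read against Srebf2. Of 10 such genes 3 rose and 1 fell in limma, against 10.2% of all genes called. Mbtps1, the site protease that makes the first cut in the SREBP precursors, rose by 0.16 ± 0.03 on the log2 scale per SD of Srebf2 (SE, n = 30, adjusted p = 0.00125, limma). Sec24d, a coat protein of the vesicles that carry Scap, rose by 0.19 ± 0.05 (adjusted p = 0.0202, limma). Ufd1, which helps extract ubiquitinated proteins from the endoplasmic reticulum, fell by 0.10 ± 0.03 (adjusted p = 0.00893, limma). These genes were chosen for naming after their values were seen.

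Of 18 fatty acid synthesis genes 2 rose with Srebf2, where 5.89% of all genes rose, so the count is not read as a result about the list. They were the desaturases Fads2 with a slope of 0.38 ± 0.09 and Scd2 with 0.15 ± 0.04 (adjusted p = 0.00696 and 0.0247, limma). With the adipocyte score 10 of the 18 rose, against 6.81% of all genes. Among them were Dgat2, which makes triglycerides, with a slope of 1.36 ± 0.07, and Fasn, fatty acid synthase, with 0.68 ± 0.06 per SD. No cholesterol gene passed in that fit. Acaca, the carboxylase of the first step, rose with the adipocyte score by 0.50 ± 0.08 and Scd1, a desaturase, by 0.46 ± 0.10 (adjusted p = 9.27e-05 and 0.00198, limma). These genes too were named after their values were seen. The summed adipocyte markers ranged between 57.7 RPKM in animal 4461 and 3511 RPKM in animal 4036. Part of the fatty acid list is known to be expressed in fat cells, and the part of fat cell content was not tested. With this score 17 of 20 stroma matrix, 11 of 12 skeletal muscle, 9 of 10 endothelial and 7 of 14 macrophage genes rose as well. In the same fit 3 of 30 proliferation genes and 1 of 12 luminal epithelial genes fell.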
